A study of Mus musculus with 8 samples.

Results

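The 10 transcription factors of early blood progenitors described here are Gata2, Myb, Runx1, Erg, Fli1, Spi1, Meis1, Hoxa9, Hhex and Sox4. They were taken as all non-control probes whose gene name in the scanner files was among these symbols, which gave 9 genes and 14 of the 39429 probes. Spi1 is listed in the files under its older symbol, Sfpi1, and was added through its transcript accession, so 10 genes and 15 probes of 31660 genes were examined. All 10 genes are accounted for below, and 9 of them passed the filter on dim probes.

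The cells were early erythroid progenitors of C57BL/6 mice, taken from fetal liver at stage E14.5. Magnetic depletion removed cells positive for lineage markers, Sca-1, CD16/32, CD41 or CD34, and cells that were c-kit positive and among the lowest 10% for CD71 were sorted from the rest. They were infected with virus and cultured for 3 days, and total RNA labelled with Cy3 was hybridised to 1-colour Agilent arrays, 2 arrays in each of 4 groups. The groups were shRNA1 virus with DEX, shRNA2 virus with DEX, control virus with DEX, and control virus without DEX. DEX is the label's abbreviation for the glucocorticoid of the study's title, and the 2 short hairpin RNAs (shRNAs) were directed against a factor that the labels call only an RNA-binding protein. The labels do not give the medium beyond DEX, the number of embryos pooled, or whether the 2 arrays of a group came from separate cultures, so p-values reflect nothing beyond the spread between the arrays, and that spread may be technical.

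These factors act in stem cells and early progenitors, and most of them give way as erythroid cells mature. Gata2 is a zinc finger factor of progenitors and mast cells whose place on erythroid genes is later taken by Gata1. Myb keeps definitive progenitors dividing, and Runx1, which binds DNA together with its partner Cbfb, is needed for the emergence of definitive blood. Erg, Fli1 and Spi1 (the protein PU.1) belong to the ETS family. Spi1 drives myeloid and lymphoid development and restrains Gata1, and Fli1 is a megakaryocyte factor. Meis1 and Hoxa9 are homeodomain proteins that work together with Pbx factors, Hhex is a homeodomain repressor of early blood and endothelium, and Sox4 is a high mobility group factor of early lymphoid and other progenitors. Glucocorticoids prolong the divisions of early erythroid progenitors in culture.

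Sequences of several kinds bear on these measurements. The first are the 250 bases upstream of the annotated start sites of Gata2, Hhex and Myb, whose levels were higher on both control arrays with DEX than without it, and of Sox4, whose level was higher on both shRNA2 arrays than in control cells with DEX. They are from RefSeq on GRCm38.p6, given 5′ to 3′ on the gene's own strand, with the ETS core GGAA, or TTCC where it lies on the other strand, in capitals:
Gata2, upstream of the start site, chr6:88193641-88193890, plus strand: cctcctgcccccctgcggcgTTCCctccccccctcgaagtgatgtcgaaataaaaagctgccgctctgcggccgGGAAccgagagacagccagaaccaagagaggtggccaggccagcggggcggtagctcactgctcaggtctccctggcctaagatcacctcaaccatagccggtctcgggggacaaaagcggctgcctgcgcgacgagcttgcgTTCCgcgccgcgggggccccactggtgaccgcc
Hhex, upstream of the start site, chr19:37434591-37434840, plus strand: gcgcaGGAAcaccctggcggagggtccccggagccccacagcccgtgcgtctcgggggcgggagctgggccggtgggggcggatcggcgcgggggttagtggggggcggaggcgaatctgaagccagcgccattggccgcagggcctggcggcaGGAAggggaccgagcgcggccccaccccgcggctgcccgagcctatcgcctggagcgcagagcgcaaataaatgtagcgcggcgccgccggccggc
Myb, upstream of the start site, chr10:21160985-21161234, minus strand: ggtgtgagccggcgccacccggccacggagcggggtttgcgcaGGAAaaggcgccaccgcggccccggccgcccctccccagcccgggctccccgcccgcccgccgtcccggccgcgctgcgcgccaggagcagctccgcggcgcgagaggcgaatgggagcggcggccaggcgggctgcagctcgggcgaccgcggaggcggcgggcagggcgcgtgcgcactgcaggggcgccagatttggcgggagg
Sox4, upstream of the start site, chr13:28953700-28953949, minus strand: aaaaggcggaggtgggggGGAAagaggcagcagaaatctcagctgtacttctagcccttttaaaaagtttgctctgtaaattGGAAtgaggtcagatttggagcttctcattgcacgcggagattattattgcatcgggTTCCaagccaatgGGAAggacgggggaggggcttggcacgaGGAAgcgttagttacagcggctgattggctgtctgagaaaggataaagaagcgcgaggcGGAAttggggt
The 4 windows hold 3 matches of the ETS core for Gata2, 2 for Hhex, 1 for Myb and 6 for Sox4. Gata2 has another annotated start site, whose window, not shown, holds 1 match. Of the 10 genes, 8 had an entry, with 12 windows in all; Fli1 and Spi1 were not among them. The core was present in 11 of the 12 windows and in 93.4% of all 32851 windows of this length. The glucocorticoid receptor half-site AGAACA, searched on both strands, was present in 1 of the 12 (Hoxa9) and in 16.1% of all windows, and the full palindrome of that receptor in 0 of the 12 and in 0.387% of all windows. The GATA core GATAA was present in 3 of the 12 (Erg, Hoxa9 and Sox4) and in 22.6% of all windows. A match describes these letters only.

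The second kind are probes. The Spi1 probe is shown because it is the only probe of the factor that differed at least 2-fold on both slides with DEX, and the Sox4 probe because that gene was read by 3 separate probes:
Spi1 probe: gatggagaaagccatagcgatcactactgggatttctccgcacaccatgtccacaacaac
Sox4 probe at base 1010: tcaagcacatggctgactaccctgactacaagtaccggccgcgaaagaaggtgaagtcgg
Positions are on build mm9, as the files give them. The Spi1 probe lies at chr2:90939665-90953452 on the plus strand, so its 60 bases span 13788 genomic bases and cross at least 1 splice junction. The Sox4 probes start at bases 1010, 2636 and 4697 of the transcript, at chr13:29044482-29044541, chr13:29042856-29042915 and chr13:29040826-29040885 on the minus strand. Sox4 values given below without a base are those of the brightest probe, at base 4697. The sequence shown is that of the dimmest, at base 1010. Gata2 was read at chr6:88156362-88156421 and Hhex at chr19:37514969-37515028, both on the plus strand. Myb was read at chr10:20844736-20844795, Fli1 at chr9:32229857-32229916 and Meis1 at chr11:18780695-18780754, all on the minus strand. The 2 Runx1 probes, at chr16:92605785-92605844 and chr16:92604413-92604472 on the minus strand, start at bases 1452 and 4166 of the transcripts they were designed on. No annotation of mm9 was used here, so exons and untranslated regions are not assigned.

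The third kind is the pentamer ATTTA, the core of the AU-rich elements that the ZFP36 family of RNA-binding proteins recognises. It was present in 1 of the 15 probe sequences, that of Meis1, and in 8.01% of all 39429 probes, and the 30 bases around it are given with the pentamer in capitals:
Meis1 probe, around ATTTA: ccaccttggagcATTTAtgtagacattgta
Probes sample 60 bases of a transcript, so the other members may hold the pentamer elsewhere.

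Levels are given as log2 of the processed signal minus the 75th percentile of the array, and a difference between groups is on the same log2 scale, beside its fitted standard error (SE). Each array had 59.5% to 62.9% of its spots well above background and 0 saturated spots, and its 75th percentile signal was 474 to 2066. The shRNA1 and shRNA2 arrays were the dimmer ones on each slide. They had 474 and 517 on the first slide, against 965 and 1006 in control cells with and without DEX. On the second slide they had 1444 and 1669, against 2066 and 1902. Signal strength therefore went with the shRNA groups, which limits comparisons of dim genes most. Replicate 1 of every group lay on the first slide and replicate 2 on the second, and each group took the same position on both slides, so group and position cannot be told apart. Zfp36l2, which knowledge of the study gives as the target of the shRNAs, was at 4.09 and 3.91 with shRNA1, 4.13 and 3.69 with shRNA2, 5.56 and 5.42 in control cells with DEX, and 3.49 and 3.86 in control cells without DEX. Its levels with either shRNA were below both control arrays with DEX. The erythroid markers Kit, Gata1, Klf1, Epor, Tfrc, Alas2, Ahsp and Slc4a1 were well above background on all 8 arrays. Limma called 0 of 19294 genes at an adjusted p below 0.05 in any comparison, and 603, 409 and 239 genes had an unadjusted p below 0.05 for DEX, shRNA1 and shRNA2, and 458 for the difference between the shRNAs. With the slide as a block it called 42 genes for DEX, 1 for shRNA2 and 0 for the others.

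The comparison of DEX with no DEX in control cells asks which genes answer to the glucocorticoid. Spi1, Hhex, Gata2 and Myb, 4 of the 9 measured factors, were higher on both arrays with DEX than on either array without it, and 2, Meis1 and Runx1, were lower. Over all genes with values on these arrays, 10.1% were higher in this way and 17.2% were lower. No member passed the test (limma, 0% of all genes, smallest adjusted p = 1.00). At an unadjusted p below 0.05 limma counted 1 member (3.13% of all genes), and with the slide as a block 3 members (9.53% of all genes) of which 0 passed after adjustment (0.218% of all genes, smallest adjusted p = 0.115).

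**Figure D1:**
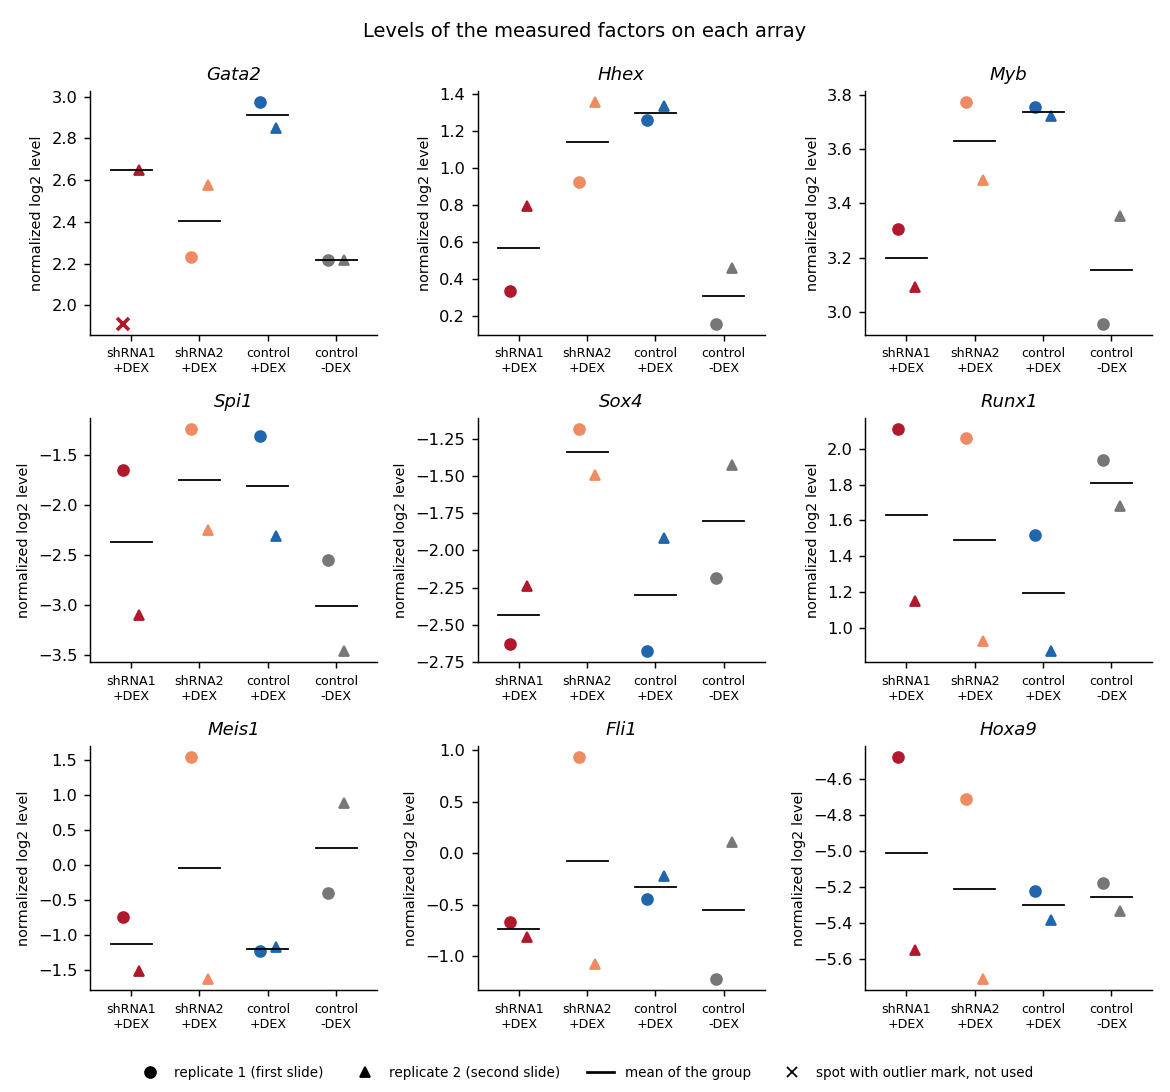
Normalized log2 level (log2 signal minus the array's 75th percentile) of the 9 measured factors on each of the 8 arrays. Circles are replicate 1 on the first slide, triangles replicate 2 on the second, horizontal lines the group means, and the cross the Gata2 spot with an outlier mark. Gata2, Hhex, Myb and Spi1 lie higher in control cells with DEX than without DEX on every array, and the scale differs between panels.

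Gata2, the zinc finger factor of progenitors, had levels of 2.98 and 2.85 in control cells with DEX and 2.22 and 2.22 without DEX. Both arrays with DEX were the higher ones, and the 2 arrays without DEX nearly coincided. The difference was 0.70 (SE 0.30, 1.62-fold), 0.76 and 0.63 on the 2 slides (limma adjusted p = 1.00, and 0.414 with the block).

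Hhex, the homeodomain repressor, had levels of 1.26 and 1.33 with DEX and 0.16 and 0.46 without DEX. The groups did not overlap, and the gap between them was wider than the spread within either. The difference was 0.99 (SE 0.33, 1.98-fold), 1.10 and 0.87 on the 2 slides (limma adjusted p = 1.00, and 0.144 with the block). In the fit without the block its 95% interval, 0.19 to 1.78, was the only one of the 9 in this comparison that did not hold 0. With the block, limma gave unadjusted p of 0.0018 for Spi1, 0.0030 for Hhex and 0.030 for Gata2. Hhex was thus not alone there, and 9.53% of all genes had such a p below 0.05.

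Myb, which sustains progenitor division, had levels of 3.76 and 3.72 with DEX and 2.96 and 3.35 without DEX. The arrays with DEX were again both higher, by more on the first slide. The difference was 0.58 (SE 0.30, 1.50-fold), 0.80 and 0.37 on the 2 slides (limma adjusted p = 1.00, and 0.535 with the block).

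Spi1 had levels of -1.31 and -2.31 with DEX and -2.55 and -3.46 without DEX. Each slide held the same gap, although the second slide lay about as far below the first as the groups lay apart. The difference was 1.19 (SE 0.68, 2.29-fold), 1.24 and 1.15 on the 2 slides, and the SE was 0.21 with the slide as a block (limma adjusted p = 1.00, and 0.115 with the block). Spi1 was the only member that differed by at least 2-fold on both slides, which 1.65% of all genes did in this direction. Summed levels of 11 measured monocyte and macrophage markers were 4.53 and 2.84 with DEX and 4.27 and 3.51 without DEX, and those of 14 neutrophil markers were 6.85 and 6.75 against 6.85 and 7.83. Neither sum was higher with DEX on both slides. Summed levels of 9 measured mast cell and basophil markers were 5.52 and 4.12 with DEX and 2.85 and 3.57 without DEX. By fitted value 3 of the 9 genes were higher and 6 lower, with a median of -0.84 relative to all genes. Hdc, which belongs to that list, was at 5.28 and 3.91 with DEX and 1.23 and 2.28 without DEX. It made up most of the sum with DEX. The part of these markers in the levels of Gata2 and the other factors was not tested. In bulk RNA, fewer cells of a type and less RNA per cell cannot be told apart.

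Meis1, the homeodomain partner of Hoxa9, had levels of -1.23 and -1.16 with DEX and -0.40 and 0.89 without DEX. Both arrays with DEX were lower. The difference was -1.44 (SE 1.03), -0.83 and -2.05 on the 2 slides (limma adjusted p = 1.00, and 0.841 with the block). Summed levels of 13 measured megakaryocyte and platelet markers were 5.24 and 4.57 with DEX and 5.86 and 6.34 without DEX, also lower on both slides, and their part in the level of Meis1 was not tested.

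Runx1, read by its probe at base 1452, had levels of 1.52 and 0.87 with DEX and 1.94 and 1.68 without DEX, a difference of -0.62 (SE 0.53; slides -0.42 and -0.82). The Runx1 probe at base 4166 had levels of -0.50 and -0.65 with DEX and -0.62 and -0.08 without DEX, with overlapping groups and a difference of -0.23. So the lower level with DEX was seen with 1 of the 2 Runx1 probes.

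Sox4 overlapped between the groups, at -2.68 and -1.92 with DEX and -2.19 and -1.42 without DEX, although each slide gave -0.49. Its probe at base 2636 had no overlap, at -3.88 and -3.50 with DEX and -3.27 and -2.81 without DEX, a difference of -0.65. The probe at base 1010 differed by -0.44 with overlapping groups. All 3 probes thus had lower means with DEX, and 1 of the 3 had groups apart.

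Fli1 had levels of -0.44 and -0.22 with DEX and -1.22 and 0.11 without DEX, so its 2 slides went opposite ways (0.78 and -0.33). Hoxa9 differed by -0.05 (SE 0.49), a sign that turned with median and quantile scaling, with levels of -5.22 and -5.39 with DEX and -5.18 and -5.34 without DEX. Its levels lay close to the dimmest spots that still counted as above background, which were at -6.22 and -6.48 with DEX and -6.03 and -6.53 without DEX. Erg could not be tested: its 2 probes were well above background on 1 and 0 of the 8 arrays, the 1 array being control without DEX, replicate 2. The second Hoxa9 probe was also above background on 1 of 8 arrays.

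**Figure D2:**
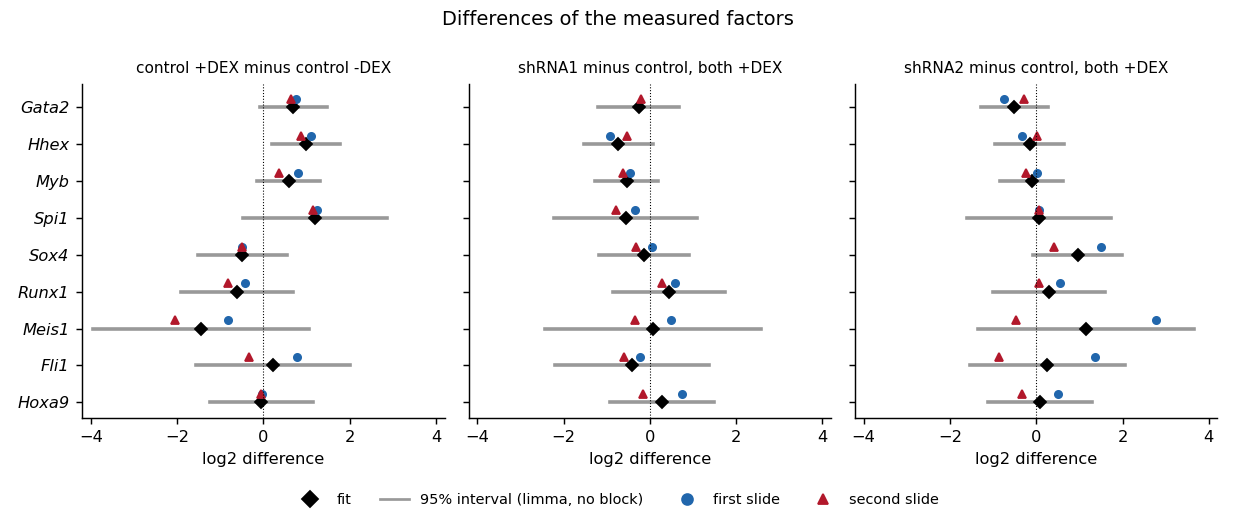
Log2 differences of the 9 measured factors in 3 comparisons, with the fitted value as a diamond, its 95% interval (limma, no block) as a line, and the values on the first and second slide as a circle and a triangle. With DEX the circle and triangle of Gata2, Hhex, Myb and Spi1 both lie right of 0. Meis1 has the widest intervals, and its 2 slides fall on opposite sides of 0 in both shRNA panels.

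Over the 9 factors the median difference with DEX was 0.31 above the median of all genes, which itself was -0.08, and 5 were higher and 4 lower by fitted value. This median rested on single arrays, at 0.066 without control without DEX, replicate 1, and 0.84 when replicate 2 of that group was left out. The 12 transcription factors of erythroid maturation, which include Gata1 and Klf1, had a median 0.37 below that of all genes (-0.37 relative to it), with 3 higher and 9 lower by fitted value and 0 past the test. By fitted value 37.5% of all genes were higher with DEX. Sox6 and Klf3, both regulators of maturing erythroid cells, were lower by -1.45 (SE 0.44) and -0.96 (SE 0.36), and Ikzf1, the factor Ikaros, was higher by 0.44, each with groups apart. Gata1 itself had levels of 5.32 and 5.25 with DEX and 5.63 and 5.46 without DEX, a difference of -0.27 (SE 0.28). Summed levels of the 8 erythroid markers named above were 8.22 and 7.62 with DEX and 9.25 and 8.55 without DEX. The sums were lower with DEX on both slides. By fitted value 7 of the 8 were lower and 1, Kit, was higher, and their part in the other values was not tested.

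Genes that work with the 10 factors were counted in the same way. Of 16 measured cofactors and complex partners, 2 had higher and 14 lower fitted values with DEX, against 37.5% of all genes higher, and 0 passed. Cbfb, the partner of Runx1, was at 3.43 and 3.59 with DEX and 2.18 and 2.57 without DEX, a difference of 1.13 (SE 0.36, limma adjusted p = 0.115 with the block). Cbfb was thus higher on both arrays with DEX, while the Runx1 probe at base 1452 was lower. Prdm16, a zinc finger factor of stem cells, was well above background on 1 of 2 arrays with DEX and on 2 of 2 without DEX. It passed the filter on dim probes only through control cells without DEX, so this contrast is no support for a difference. Hoxb4 was not well above background on either array with DEX and was above it on 1 of 2 without DEX, so no fold is given.

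Of 17 measured genes long reported to be controlled by one of the factors, 6 had higher and 11 lower fitted values with DEX, and 0 passed. Among all genes the share higher was 37.5%. Kit, the stem cell factor receptor controlled by Gata2 and Myb, was at 3.88 and 3.44 with DEX and 1.99 and 1.91 without DEX, a difference of 1.71 (SE 0.31, limma adjusted p = 0.085 with the block). Hdc, the histidine decarboxylase of mast cells and basophils, was at 5.28 and 3.91 with DEX and 1.23 and 2.28 without DEX, a difference of 2.84 (SE 0.75). Both were higher on each array with DEX. Cebpa, a myeloid factor, was lower by -1.27 (SE 0.69). Of 10 measured relatives in the same families, 7 had higher and 3 lower fitted values, and Elf1, another ETS factor, was apart, higher by 0.35.

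With shRNA1 under DEX, 3 of the 8 factors that had values on all 4 arrays, Hhex, Myb and Fli1, were lower on both arrays than in control cells with DEX, and 0 were higher. Over all genes 7.59% were lower in this way and 17.9% higher. With each array's median as the scale, 5 members had groups apart. No member passed (limma, smallest adjusted p = 0.923, and 0.240 with the block), and 0 and 2 members had an unadjusted p below 0.05 without and with the block, against 2.12% and 17.8% of all genes. This comparison uses the same control arrays with DEX as the one above, so the values of both are given side by side and their likeness is not a result.

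Hhex had levels of 0.33 and 0.80 with shRNA1, against 1.26 and 1.33 in control cells with DEX. Both shRNA1 arrays were lower, and the first slide showed the wider gap. The difference was -0.73 (SE 0.33), -0.93 and -0.54 on the 2 slides (limma adjusted p = 0.923, and 0.240 with the block), beside 0.99 for DEX.

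Myb had levels of 3.31 and 3.09 with shRNA1, against 3.76 and 3.72 in control cells with DEX. The groups did not overlap. The difference was -0.54 (SE 0.30), -0.45 and -0.63 on the 2 slides (limma adjusted p = 0.923, and 0.296 with the block), beside 0.58 for DEX.

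The only Gata2 spot of shRNA1 replicate 1 carried the scanner software's outlier mark, so the fit used 7 arrays for this gene. Gata2 was at 2.65 on the remaining shRNA1 array, against 2.98 and 2.85 in control cells with DEX, a difference of -0.26 (SE 0.37), or -0.20 within the second slide. With the marked spot kept, its level was 1.91 and the difference -0.63 (SE 0.35, slides -1.06 and -0.20). Gata2 was thus lower by either reading, and the size rests on the marked spot.

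Fli1 had levels of -0.66 and -0.81 with shRNA1, against -0.44 and -0.22 in control cells with DEX, a difference of -0.41 (SE 0.74). The shRNA1 arrays were both lower, but all 4 arrays lay within the span of the 2 arrays without DEX. Spi1 overlapped, at -1.65 and -3.09 against -1.31 and -2.31, a difference of -0.56 (SE 0.68; slides -0.34 and -0.78).

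The 2 Runx1 probes disagreed with shRNA1. The probe at base 1452 had levels of 2.11 and 1.15, against 1.52 and 0.87 in control cells with DEX, a difference of 0.44 (SE 0.53) with overlapping groups. The probe at base 4166 had levels of -1.09 and -1.01, against -0.50 and -0.65, a difference of -0.47 with the shRNA1 arrays lower. No direction for Runx1 is therefore given, and the files do not say which transcripts each probe detects beyond the accession it was designed on.

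**Figure D3:**
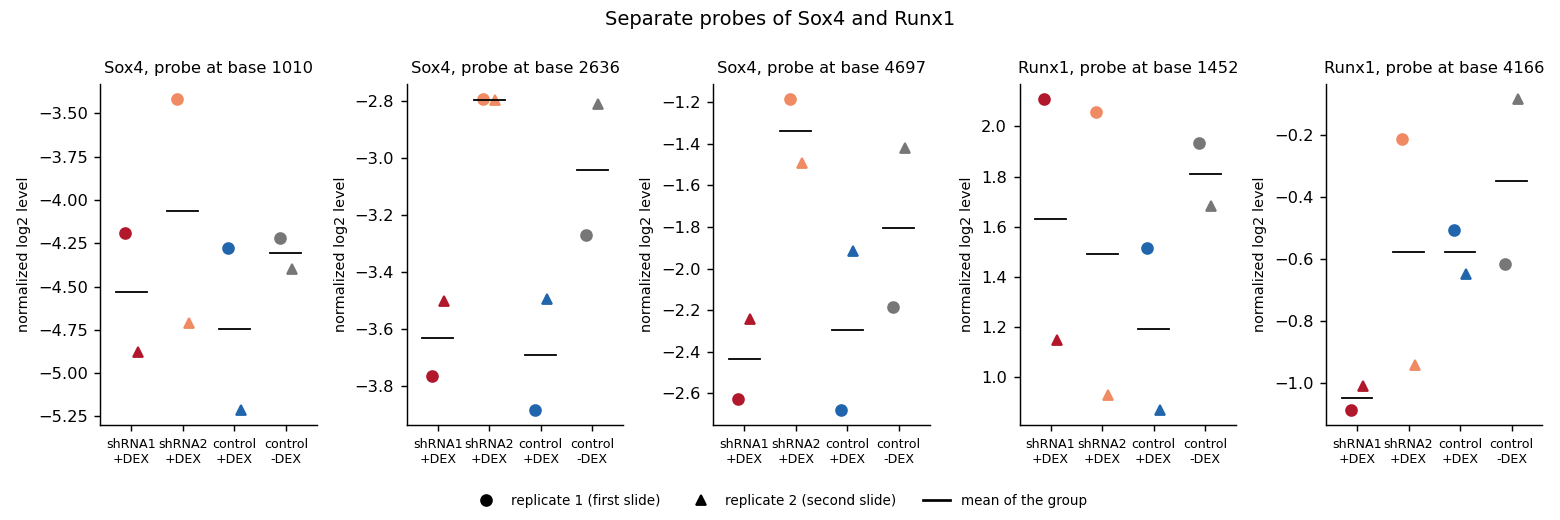
Normalized log2 level of the 3 Sox4 probes and the 2 Runx1 probes on each of the 8 arrays, titled by the transcript base at which the probe starts. Symbols are as in the plot of levels by array. In all 3 Sox4 panels the mean of shRNA2 is above that of control cells with DEX, while the shRNA1 mean of Runx1 is above the control mean with DEX for one probe and below it for the other.

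Meis1, Hoxa9 and Sox4 overlapped between shRNA1 and control cells with DEX, with differences of 0.07 (SE 1.03), 0.29 (SE 0.49) and -0.14 (SE 0.43), and the sign of each turned under at least 1 other scaling, background correction or choice of probe. Meis1 was at -0.74 and -1.51 with shRNA1, against -1.23 and -1.16. Sox4 was at -2.63 and -2.24 with shRNA1, against -2.68 and -1.92. The other Sox4 probes differed by 0.06 and 0.21, so the sign of this small difference depended on the probe.

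The median of the 9 factors with shRNA1 was -0.44 relative to the median of all genes, which was 0.18. The erythroid maturation factors had a median 0.35 above that of all genes, with 10 of 12 higher by fitted value and 0 past the test. By fitted value 62.2% of all genes were higher with shRNA1. Of the 12, 6 were apart and higher and 2 apart and lower, against 17.9% and 7.59% of all genes. Sox6 was higher by 1.16 (SE 0.44), with levels of -2.24 and -2.37 against -2.88 and -4.05. E2f2, a cell cycle factor of late erythroid divisions, was higher by 0.98 (SE 0.53) and Foxo3, a forkhead factor of maturing erythroid cells, by 0.95 (SE 0.59). Summed levels of these 8 erythroid markers were 9.20 and 8.32 with shRNA1, against 8.22 and 7.62 in control cells with DEX, higher on both slides. By fitted value 7 of the 8 were higher and 1, Kit, was lower.

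Among the partners Cbfb was at 2.24 and 2.65 with shRNA1, against 3.43 and 3.59, a difference of -1.07 (SE 0.36). Tcf3, the E protein E2A, was higher by 0.65 (SE 0.37). Fitted values were higher for 12 and lower for 4 of the 16 partners, against 62.2% of all genes higher, and 0 passed. Hoxb4 was not above background on any of these 4 arrays.

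Among the reported targets Kit was at 2.56 and 2.36 with shRNA1, against 3.88 and 3.44, a difference of -1.20 (SE 0.31), lower on both arrays. Cebpe and Mpo, genes of granulocyte precursors, were higher by 1.54 (SE 1.04) and 0.98 (SE 0.94). Summed levels of the 14 neutrophil markers were 8.23 and 7.67 with shRNA1, against 6.85 and 6.75, and Mpo and Cebpe belong to that list. Of the relatives, Elf1 was lower by -0.51, Sox12 lower by -0.33 and Mybl1 higher by 0.57, each with groups apart and 0 past the test. Mybl1 was above background on both shRNA1 arrays but on 1 of 2 control arrays with DEX. It passed the filter on dim probes through shRNA1 alone, so its higher level there is no support for a difference.

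With shRNA2 under DEX, Sox4 was the only factor higher on both arrays than in control cells with DEX (7.39% of all genes), and Gata2 the only factor lower on both (8.09% of all genes). No member passed (limma, smallest adjusted p = 1.00, and 0.779 with the block), and 0 and 1 members had an unadjusted p below 0.05 without and with the block, against 1.24% and 5.7% of all genes. After adjustment with the block the share of all genes was 0.00518%.

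Sox4 had levels of -1.19 and -1.49 with shRNA2, against -2.68 and -1.92 in control cells with DEX. Both shRNA2 arrays were the higher ones, by more on the first slide. The difference was 0.96 (SE 0.43, 1.94-fold), 1.49 and 0.42 on the 2 slides (limma adjusted p = 1.00, and 0.779 with the block).

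The other Sox4 probes gave values of similar size. The probe at base 2636 had levels of -2.79 and -2.80 with shRNA2, against -3.88 and -3.50, with no overlap and a difference of 0.89. The probe at base 1010 had levels of -3.42 and -4.71, against -4.28 and -5.21, with overlapping groups and a difference of 0.68. All 3 probes were higher with shRNA2 on each slide.

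Gata2 had levels of 2.23 and 2.58 with shRNA2, against 2.98 and 2.85 in control cells with DEX. Both shRNA2 arrays were lower, and the first lay at the level of control cells without DEX (2.22 and 2.22). The difference was -0.51 (SE 0.30), -0.74 and -0.27 on the 2 slides (limma adjusted p = 1.00, and 0.779 with the block).

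Hhex had levels of 0.92 and 1.36 with shRNA2, and Myb of 3.77 and 3.49, and both overlapped with control cells with DEX. Their differences were -0.16 (SE 0.33, 95% interval -0.95 to 0.64) and -0.11 (SE 0.30, interval -0.84 to 0.62). Spi1 was at -1.24 and -2.24 with shRNA2, against -1.31 and -2.31, a difference of 0.06 that was nearly equal on both slides (0.07 and 0.06) and was -0.18 with median scaling. Runx1 differed by 0.30 (SE 0.53) with its probe at base 1452, with levels of 2.06 and 0.93, and by -0.00 with that at base 4166, with levels of -0.21 and -0.94. Hoxa9 differed by 0.09 (SE 0.49), or by -0.18 with quantile scaling, with levels of -4.71 and -5.71, and the dimmest spots above background on those arrays were at -5.34 and -6.50.

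Meis1 and Fli1 split by slide. Meis1 was at 1.55 and -1.62 with shRNA2, against -1.23 and -1.16 in control cells with DEX, so it was higher by 2.78 on the first slide and differed by -0.46 on the second. Fli1 was at 0.93 and -1.08, against -0.44 and -0.22, with slide values of 1.37 and -0.86. The 2 shRNA2 arrays were thus the highest and the lowest of all 8 for Meis1, and shRNA2 replicate 1 was also the highest for Fli1.

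That array also stood apart in markers of other cells. Summed levels of the 13 measured megakaryocyte and platelet markers were 7.90 and 4.18 with shRNA2, against 5.24 and 4.57 in control cells with DEX. The highest and the lowest of the 8 sums were both shRNA2 arrays, as for Meis1, and all 13 markers were well above background on every array. Neutrophil markers summed to 9.42 and 7.06 with shRNA2, against 6.85 and 6.75. Without shRNA2 replicate 1 the difference was -0.42 for Meis1 and -0.75 for Fli1. Sox4, which was higher on both slides, differed by 0.80 without that array and by 0.58 without control with DEX, replicate 1. The part of other cell types in these values was not tested.

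**Figure D4:**
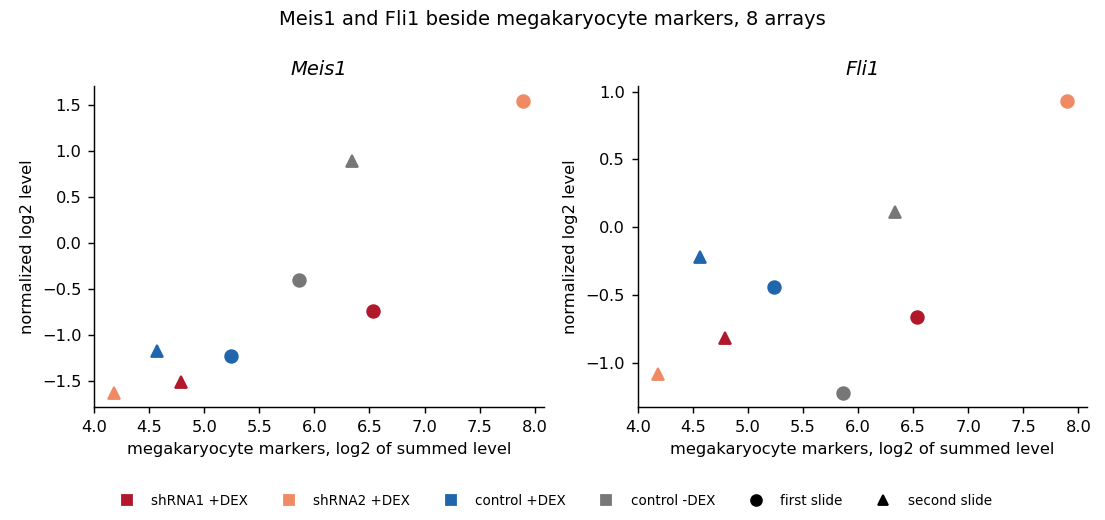
Normalized log2 level of Meis1 (left) and Fli1 (right) against the log2 of the summed level of 13 megakaryocyte and platelet markers, 1 point per array. Colours mark the groups, circles the first slide and triangles the second. The shRNA2 array of the first slide is the rightmost and highest point in both panels.

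The median of the 9 factors with shRNA2 was 0.07 above that of all genes, which was 0.02, and its sign turned with single arrays, at -0.27 without shRNA2 replicate 1 and 0.47 without shRNA2 replicate 2. Of the 16 partners, 11 had higher and 5 lower fitted values, against 52.0% of all genes higher, and 0 passed. Hoxb4, a homeobox factor of stem cells, was above background on both shRNA2 arrays and on neither control array with DEX, and was at least 2.32-fold higher (fold against the lowest level above background). Hoxb4, counted among the partners, passed the filter on dim probes through shRNA2 alone. Its higher level there was set by the filter and is no support for a difference. Etv6, an ETS repressor, was higher by 0.50 (SE 0.57) and Lyl1, a relative of Tal1, by 0.29 (SE 0.31), each with groups apart. Of the 17 reported targets, 14 had higher fitted values, and Cebpe, Mpo and Flt3, a receptor of lymphoid and myeloid progenitors, were higher by 2.42, 1.98 and 1.90 with groups apart. Their slide values were 3.97 and 0.88, 3.45 and 0.51, and 3.57 and 0.23, so the first slide carried most of each. Kit differed by -0.25 (SE 0.31). Among erythroid maturation factors Ikzf1 was lower by -0.71 (SE 0.48), and the list's median was 0.03 above that of all genes. Sox12 was the relative apart, lower by -0.40.

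The 2 shRNAs were also set against each other, and the level of Zfp36l2 differed by 0.09 (SE 0.31) between them. Sox4, Hhex and Myb were lower on both shRNA1 arrays than on either shRNA2 array, and 0 of the 8 factors with all arrays were higher, against 4.69% and 12% of all genes. No member passed (limma, smallest adjusted p = 1.00, and 0.380 with the block). At an unadjusted p below 0.05 there were 1 and 3 members without and with the block, against 2.37% and 10.9% of all genes.

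Sox4 was at -2.63 and -2.24 with shRNA1 and -1.19 and -1.49 with shRNA2. The 2 shRNA1 arrays were lower by a margin wider than the spread within either group. The difference was -1.09 (SE 0.43, 95% interval -2.13 to -0.06), and the other probes gave -0.84 with groups apart and -0.47 with overlap (limma adjusted p = 1.00, and 0.380 with the block). Hhex differed by -0.58 (SE 0.33; slides -0.59 and -0.56) and Myb by -0.43 (SE 0.30; slides -0.47 and -0.40). Spi1 differed by -0.63 (SE 0.68), with -0.41 and -0.85 on the 2 slides and overlapping groups.

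Meis1 differed by -1.08 (SE 1.03) and Fli1 by -0.67 (SE 0.74), and for both the slides had opposite signs (-2.28 and 0.11 for Meis1, -1.60 and 0.26 for Fli1). Runx1 differed by 0.14 (-0.17 as the mean of its probes), Hoxa9 by 0.20 and Gata2 by 0.25 on 7 arrays, or by -0.12 with the marked spot kept. The median of the 9 factors was -0.70 relative to that of all genes, which was 0.12.

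In the same comparison the receptor genes Flt3, Cd34 and Kit were lower with shRNA1, by -1.50, -1.43 and -0.95, each with groups apart. Kit was at 2.56 and 2.36 with shRNA1 and 3.22 and 3.60 with shRNA2. Among partners Cbfb was lower by -0.71 and Etv6 by -0.90, and Hoxb4 was above background on 0 of 2 shRNA1 arrays and 2 of 2 shRNA2 arrays, at least 1.75-fold higher with shRNA2. Since Hoxb4 passed the filter through shRNA2 alone, its direction was set by the filter. Sox6 was higher by 1.60 (SE 0.44), at -2.24 and -2.37 with shRNA1 and -4.06 and -3.76 with shRNA2, and Klf3 by 0.60 (SE 0.36). Elf1 was lower by -0.39 and Mybl1 higher by 0.62. Mybl1 was above background on 2 shRNA1 arrays and 1 shRNA2 array. It met the filter only through shRNA1, so its direction is no support for a difference. The 8 erythroid markers summed to 9.20 and 8.32 with shRNA1 and 8.27 and 7.62 with shRNA2, and 0 genes of these lists passed the test.

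In the order of group means, control cells with DEX stood first for Gata2, Hhex and Myb. For Hhex and Myb the order was control with DEX, shRNA2, shRNA1, control without DEX. For both, shRNA2 did not overlap with shRNA1, while the neighbours on either side overlapped. For Gata2 the means were 2.91 in control cells with DEX, 2.65 with shRNA1 (1 array), 2.40 with shRNA2 and 2.22 in control cells without DEX, and no neighbouring groups overlapped. This order rests on leaving out the marked spot: with it kept, shRNA1 was at 1.91 and 2.66, overlapped with shRNA2 at 2.22 and 2.58, and had a mean lower than that of shRNA2 (-0.12). Sox4 stood in another order, with shRNA2 first at -1.34, then control without DEX at -1.80, control with DEX at -2.30 and shRNA1 at -2.43, and each pair of neighbours overlapped.

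With the marked Gata2 spot left out, Gata2, Hhex and Myb had the highest ratios of between-group to within-group variance among the 9 factors, at 7.86, 6.99 and 4.88, and Hoxa9 the lowest at 0.12. The tested genes whose levels ran most like Hhex over the 8 arrays were Cbfb (Pearson r = 0.975), Lactb (0.966) and Notch2 (0.964), and 6 of 19080 genes had r above 0.95. Those most like Myb were Parvg (0.969), Wdfy4 (0.950) and Klhl5 (0.947), with 2 genes above 0.95. Those most like Gata2, over 7 arrays, were Zfp747 (0.983), Bbs2 (0.975) and Slc35c1 (0.974), with 11 of 19097 genes above 0.95. These correlations share slides, groups and scaling and are descriptions only. Between members, the pairs with r farthest from 0 over the same arrays were Runx1 and Hoxa9 (0.85), Meis1 and Fli1 (0.79), Gata2 and Hhex (0.76), Myb and Hhex (0.75), Gata2 and Meis1 (-0.75) and Runx1 and Hhex (-0.73). Hoxa9 lay near background. Runx1 was read here by its probe at base 1452, which was higher on the first slide than on the second in every group.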

How the data were processed

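Array images were quantified by the authors in Agilent Feature Extraction 10.1.1.1, per the file headers. The deposited processed signal of a spot is an intensity on a linear scale, made with detrending on and with surrogates standing in for background-level spots. The submitters' processing notes also name limma, without a version. The authors' deposited log2 table, whose making is not given in the sources used here, served only as an alternative; its column medians were 6.65 to 6.66.

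Of 44397 spots per array, 1377 controls and spots with an outlier mark were left out. Log2 signals were scaled to each array's 75th percentile. Of 39429 probes, 26581 were named through their accession and 12848 keep the file's name. To be tested, a probe had to be well above background on 2 arrays of the same group; 441 probes with a missing array, Gata2's among them, were kept. A gene was its brightest tested probe, and 19294 genes were fitted in limma 3.58.1 (R 4.3.3) over 8 arrays and 4 groups, with Benjamini-Hochberg adjustment over all genes and a threshold of 0.05. A bound sets the brighter group against the lowest level above background. A summed level is the log2 of the sum of linear levels over a list. The fit was tested on simulated data, and tables and plots were made with the data.table package (1.17.8), pandas 2.3.3 and matplotlib 3.10.9.

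Replicate number and slide coincide, and deviations of same-numbered arrays from their group means correlated at 0.43 to 0.86 over 19081 genes for all pairs of groups, so the numbers pair the arrays by slide. The fit with slide as a block was run beside the one without it.

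The members, the gene lists and the tests were chosen with earlier results of these data known. Text names all members and, per list and comparison, genes past the threshold and up to 3 with the largest difference among those whose groups do not overlap, and the 3 genes most like each of the 3 members with the highest variance ratio. Values of Gata1, Kit with shRNA2 and the genes like Runx1 are given outside this rule, chosen after their values were seen. Medians of lists are given relative to all genes because scaling moved the latter: for DEX, shRNA1 and shRNA2 it was -0.08, 0.18 and 0.02, against 0.01, -0.22 and -0.22 with each array's median and -0.02, -0.00 and -0.05 with quantile scaling. The number of arrays limits the precision. 1 erythroid marker gene is not reported here, and the summed level of that list leaves it out.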

Additional observations from a re-analysis of the deposited data

Results flagged for a closer look

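For Spi1 the differences of the 2 shRNAs from control cells with DEX had opposite signs on both slides, although those of shRNA2 were small beside their SE of 0.68. With shRNA1 the slide differences were -0.34 and -0.78, and with shRNA2 they were 0.07 and 0.06. The difference between the shRNAs was -0.63 (SE 0.68, limma adjusted p = 1.00; 0.411 in the fit that blocks by slide), so it did not pass. The sign for shRNA2 turned with median scaling, without control with DEX, replicate 2 (-0.43), and without shRNA2 replicate 1 (-0.44). Without shRNA1 replicate 2 the sign for shRNA1 turned (0.16), as did that of the difference between the shRNAs (0.094). Opposite directions are therefore not established.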

How the results depend on the processing

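No member passed in any comparison under any of the planned settings or with marked spots kept, and with the replicate block the count of members past the threshold was also 0 in each comparison. Over single members, 569 alternative values kept their direction and 41 did not. Gata2, Myb, Spi1, Hhex, Meis1, Runx1 and Sox4 kept theirs for DEX under every setting run, as did Myb, Hhex, Fli1 and Gata2 for shRNA1 and Sox4 and Gata2 for shRNA2; Gata2 for shRNA1 could not be estimated without shRNA1 replicate 2. Reversed with normexp was Sox4 for shRNA1 (0.013). With quantile scaling Hoxa9 was 0.063 (DEX), -0.13 (shRNA1) and -0.18 (shRNA2). With median scaling Hoxa9 became 0.051, -0.11 and -0.15, Meis1 -0.32 for shRNA1, Spi1 -0.18 for shRNA2 and Runx1 -0.016 between shRNAs. As means over probes, Runx1 became -0.018 and Sox4 0.044 for shRNA1, and Runx1 -0.17 between shRNAs. In the authors' deposited values Hoxa9 became -0.051 for shRNA1 and -0.081 for shRNA2, and with marked spots kept, a setting chosen after seeing the data, Gata2 became -0.12 between shRNAs. The members' median for shRNA1, -0.44, became -0.54 with normexp, -0.32 with median scaling, -0.60 with no filter and -0.59 with marked spots kept. Members with groups apart, counted after seeing the data, became 5 for shRNA1 and 1 for shRNA2 with median scaling. The causes were not tested. Leaving out each array in turn gave the following lowest and highest values. For DEX, Fli1 ran from -0.44 to 0.89, Hoxa9 from -0.13 to 0.035, Spi1 from 0.70 to 1.69, Meis1 from -2.09 to -0.80, Runx1 from -0.94 to -0.29, Sox4 from -0.87 to -0.11, Myb from 0.38 to 0.78 and the members' median from 0.066 to 0.84. For shRNA1, Runx1 ran from -0.044 to 0.92, Spi1 from -1.28 to 0.16, Meis1 from -0.31 to 0.46, Hoxa9 from -0.25 to 0.83 and Sox4 from -0.52 to 0.24. For shRNA2, Myb ran from -0.25 to 0.036, Runx1 from -0.27 to 0.87, Fli1 from -0.75 to 1.26, Spi1 from -0.44 to 0.57, Meis1 from -0.42 to 2.74, Hoxa9 from -0.41 to 0.59, Hhex from -0.37 to 0.062, Sox4 from 0.58 to 1.34, Gata2 from -0.68 to -0.34 and the members' median from -0.27 to 0.47. Between shRNAs, Runx1 ran from -0.43 to 0.70, Fli1 from -1.67 to 0.34, Spi1 from -1.35 to 0.094, Meis1 from -2.67 to 0.50, Hoxa9 from -0.34 to 0.73, Hhex from -0.81 to -0.34, Gata2 from 0.073 to 0.42 and the members' median from -0.71 to -0.19, the last without shRNA2 replicate 1. Members with groups apart ran from 7 to 8 for DEX, 5 to 7 for shRNA1, 2 to 9 for shRNA2 and 5 to 7 between shRNAs, since a group of 1 array overlaps less. Dim spots limit Hoxa9 and Erg.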

Other observations

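The Runx1 probe at base 1452 was higher on the first slide than on the second in 4 of 4 groups. The genes whose levels ran most like it over the 8 arrays were Oas2 (Pearson r = 0.994) and Mx2 (0.993), both induced by interferon, followed by Frem3 (0.988), and 141 of 19080 genes had r above 0.95. For Hoxa9, whose levels lay near background, 392 genes had r above 0.95, against 2 for Myb and 6 for Hhex. These are descriptions over 8 arrays that share slides and scaling.

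Among markers of cells outside the blood, 5 of 12 endothelial and 7 of 12 hepatocyte genes were measured. Endothelial sums were 4.24 to 5.31 over the 8 arrays, and a sum is weighted to the brightest genes. The mean log2 level of these 5 genes was -0.37 and -1.57 with shRNA1 and -0.81 and -2.55 with shRNA2. It was -1.37 and -2.15 in control cells with DEX and -0.90 and -1.27 without DEX. Hepatocyte sums were 1.37 and 0.68 with shRNA1, 1.21 and 0.65 with shRNA2, 1.53 and 0.75 in control cells with DEX, and 0.45 and 0.49 without DEX. Of 12 lymphoid genes 6 were measured, with 0 past the test in any comparison.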
